A study of Mus musculus with 12 samples.

Results

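The interferon regulatory factors (IRFs) are DNA-binding proteins that turn on, or hold back, interferon genes and the genes that answer interferon. The 8 genes Irf1, Irf2, Irf3, Irf4, Irf5, Irf7, Irf8 and Irf9 were taken by symbol, 1 row per Ensembl gene ID, from a table of 40481 genes measured by RNA sequencing in cultured mouse hematopoietic stem cells (HSCs). Of these 8 genes, 7 entered the tests, since Irf4 did not reach 1 CPM (a gene's reads scaled to a fixed library total) in at least 3 of the 12 libraries. Each of the 7 was above 1 CPM in every library, so their entry did not depend on the group in which they were high.

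The libraries formed 4 groups of 3. The genotypes were WT (wild type) and iE/R, the labels' name for an inducible form of ETV6-RUNX1, in which parts of transcription factor genes are joined as in childhood B-cell leukemia. The HSCs had been sorted from E14.5 fetal liver or from bone marrow of mice aged 8 weeks. All 4 groups, WT included, then spent 3 days in ex vivo expansion culture with doxycycline at 1 µg/mL, so every value describes cultured, doxycycline-exposed cells, and no group without the drug was compared. The labels do not say how the fusion is driven, whether a library pools animals or whether replicates came from separate animals, so the p-values measure only the spread between these samples, which may be technical. In bulk RNA, a change in the share of cells of a type and a change in RNA per cell cannot be told apart.

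As background, cells that sense foreign nucleic acid activate IRF3, IRF5 and IRF7 proteins through kinases, and these factors switch on interferon genes. Secreted type I interferon then signals through JAK kinases to the complex ISGF3, in which IRF9 is the DNA-binding subunit. ISGF3 binds interferon-stimulated response elements (ISREs) and raises many genes, Irf7 among them, while GAS elements, the other class of interferon-response element, lie in front of genes such as Irf1. IRF2 competes with IRF1 for related sites, and IRF4 and IRF8 work with partner factors in lymphoid and myeloid cells, where IRF8 is needed for monocytes and dendritic cells.

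The DNA in front of the IRF genes was searched for these elements, because several of the genes moved together. RefSeq promoter windows of the build GRCm38.p6 were found for all 8 genes, and the 250 bases before each start were searched on both strands. The ISRE core was spelled GAAANNGAAA and the GAS element TTCNNNGAA, and the letters of these motifs do not overlap in the matches found. Among 32851 windows of the same length, 2.98% held the ISRE core and 7.02% held the GAS element. Irf2 held both, Irf1 held 1 GAS match and Irf8 held 2. The windows with a match are shown from base -250 to base -61 on the strand of the gene, with matches in capitals, next to that of Irf7, the gene with the largest change and no match. They lie at chr11:53769764-53769953 on the plus strand for Irf1, at chr8:46739495-46739684 on the plus strand for Irf2, at chr8:120736108-120736297 on the plus strand for Irf8 and at chr7:141266485-141266674 on the minus strand for Irf7.
Irf1: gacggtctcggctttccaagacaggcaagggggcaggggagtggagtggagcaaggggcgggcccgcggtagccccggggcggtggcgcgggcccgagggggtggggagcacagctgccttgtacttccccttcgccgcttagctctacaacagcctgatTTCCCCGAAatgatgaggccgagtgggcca
Irf2: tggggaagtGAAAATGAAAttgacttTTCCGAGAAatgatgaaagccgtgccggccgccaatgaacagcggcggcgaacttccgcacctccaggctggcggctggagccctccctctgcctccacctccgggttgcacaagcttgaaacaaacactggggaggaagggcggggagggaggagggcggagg
Irf8: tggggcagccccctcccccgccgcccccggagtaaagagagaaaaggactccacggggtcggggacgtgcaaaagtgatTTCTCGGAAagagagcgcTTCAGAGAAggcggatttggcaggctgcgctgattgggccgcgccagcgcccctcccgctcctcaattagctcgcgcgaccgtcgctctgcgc
Irf7: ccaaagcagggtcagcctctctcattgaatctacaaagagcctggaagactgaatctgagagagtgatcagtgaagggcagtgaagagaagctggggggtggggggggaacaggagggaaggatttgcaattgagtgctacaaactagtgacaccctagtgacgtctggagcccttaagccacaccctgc
The windows of Irf3, Irf4, Irf5, Irf7 and Irf9 held neither spelling. Irf1, Irf8 and Irf9 each had 2 windows, and the second window of Irf1 and of Irf8 held no match. Both Irf9 windows, at chr14:55603735-55603984 and chr14:55604329-55604578, lie inside the annotated span of the gene, which starts at 55603571. The bases before that span were not searched. A match is a string of letters and not a measured binding site, and a window without one says only that these letters are not in it.

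The 12 libraries held 32.3 to 64.5 M reads each. The floor used here, 3 reads, was worth 0.0465 CPM at the largest total and 0.0928 CPM at the smallest, and it covers counting error only. The 9 HSC marker genes examined all had group means of at least 1 CPM in each of the 4 groups. Runx1 was 218 to 244 CPM in ETV6-RUNX1 and 110 to 136 CPM in WT fetal liver, and 143 to 194 against 86.7 to 105 CPM in bone marrow, and Etv6 was also higher without overlap in both sources. The median gene among all those tested moved by 0.08 in log2 units with the fusion in fetal liver and by 0.13 in bone marrow. Median-of-ratios scaling moved the bone marrow median to 0.01 and quantile normalization moved the fetal liver median to -0.10. Under these scalings the share of higher calls among all called genes went from 57.6% to 42.0% in fetal liver (quantile) and from 74.5% to 53.0% in bone marrow (median-of-ratios). No IRF gene changed its direction with the scaling.

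In fetal liver HSCs, ETV6-RUNX1 went with higher RNA of 6 of the 7 IRF genes tested, and none was lower. The call rule was a limma adjusted p under 0.05, which 24.8% of all 14271 genes tested passed in the upward direction and 43.1% in either direction. The rises ran from 1.81-fold for Irf2 to 77.0-fold for Irf7 in mean CPM, and only Irf3 did not pass. In bone marrow HSCs 4 of the 7 genes were called higher, namely Irf1, Irf2, Irf7 and Irf9, against 14.4% of all genes tested in that direction and 19.4% in either direction.

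**Figure D1:**
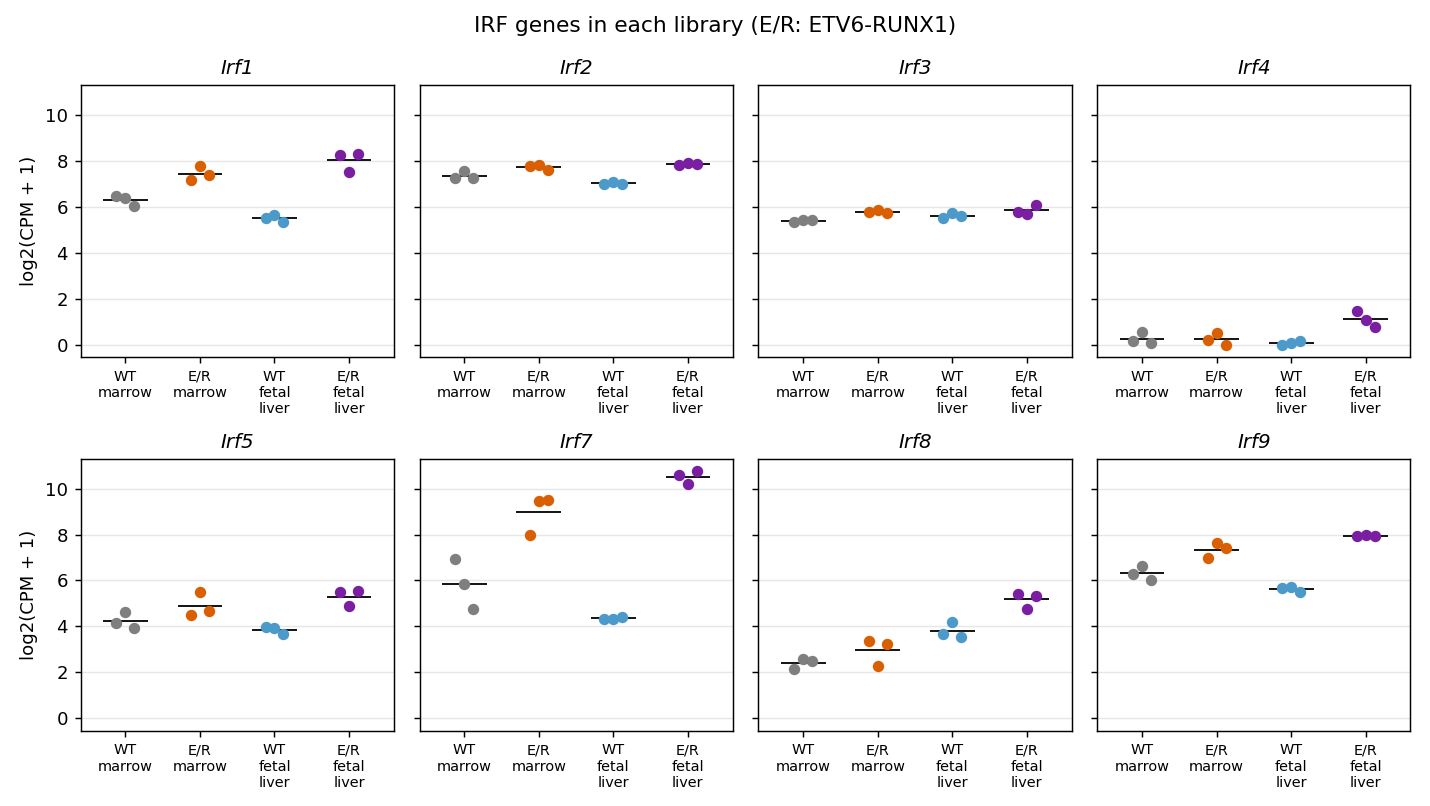
Level of each of the 8 IRF genes in every library, as log2(CPM + 1), in WT and ETV6-RUNX1 (E/R) HSCs from bone marrow and fetal liver. Each point is 1 library and each bar the mean of 3, and in Irf7 the ETV6-RUNX1 fetal liver libraries, at 1187 to 1737 CPM, stand above all others.

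Irf7 (ENSMUSG00000025498, chromosome 7, 141262706 to 141266481 on the minus strand of GRCm38), the factor that amplifies type I interferon production, had the largest response. In WT fetal liver it was 19.1, 18.9 and 20.1 CPM in replicates 1 to 3, and in ETV6-RUNX1 fetal liver 1543, 1187 and 1737 CPM. In WT bone marrow the replicates gave 121.8, 55.8 and 26.3 CPM, and in ETV6-RUNX1 bone marrow 249.1, 706.7 and 715.9 CPM. The genotypes did not overlap in either source. The WT fetal libraries lay within a narrow band, whereas the WT marrow libraries were spread widely, and replicate 1 of the ETV6-RUNX1 marrow group was well below the other two. On the log2(CPM + 1) scale the fusion effect was 6.18 ± 0.45 (SE; limma adjusted p = 1.2e-07) in fetal liver. In bone marrow it was 3.13 ± 0.45 (limma adjusted p = 0.000549), an 8.20-fold difference of the means.

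Irf9 (ENSMUSG00000002325, chromosome 14, 55603571 to 55610030 on the plus strand), the DNA-binding subunit of ISGF3, followed the same order of groups. It was 49.8, 51.7 and 44.9 CPM in WT and 241.3, 253.6 and 241.6 CPM in ETV6-RUNX1 fetal liver. Bone marrow gave 77.4, 96.7 and 63.7 CPM in WT and 126.2, 199.3 and 168.1 CPM with the fusion. The genotypes were separate in both sources, and the spread between ETV6-RUNX1 fetal libraries was small. The effect was 2.31 ± 0.17 in log2 units (limma adjusted p = 1.7e-07) in fetal liver, a 5.03-fold difference, and 1.04 ± 0.17 (limma adjusted p = 0.0015) in bone marrow. Exons of Irf9 share 123 bp, 2.28% of their length, with Rnf31 on the same strand, whose mean went from 14.4 to 41.9 CPM in fetal liver. Reads from the shared stretch cannot be assigned, and their part in the Irf9 values was not tested.

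Irf1 (ENSMUSG00000018899, chromosome 11, 53770014 to 53778374 on the plus strand), an activator first known from the interferon beta promoter, was lowest in WT fetal liver and highest in ETV6-RUNX1 fetal liver. The 3 WT fetal replicates were 45.1, 48.8 and 39.5 CPM, and those with the fusion 307.2, 179.7 and 314.0 CPM. The WT marrow replicates were 86.5, 82.2 and 64.4 CPM, against 142.4, 219.2 and 166.9 CPM with the fusion. Replicate 2 of the ETV6-RUNX1 fetal group lay below its partners and inside the range of the ETV6-RUNX1 marrow group, but neither genotype comparison overlapped. The fetal liver effect was 2.52 ± 0.21 in log2 units (limma adjusted p = 6.2e-07), 6.01-fold in mean CPM. The bone marrow effect was 1.16 ± 0.21 (limma adjusted p = 0.00273), 2.27-fold in mean CPM.

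Irf2 (ENSMUSG00000031627, chromosome 8, 46739732 to 46847458 on the plus strand), the factor that opposes IRF1 at shared sites, moved in the same direction by less. WT fetal liver gave 124.6, 133.1 and 126.8 CPM, and ETV6-RUNX1 fetal liver 223.7, 238.1 and 233.4 CPM. WT bone marrow gave 150.3, 186.0 and 152.2 CPM, and ETV6-RUNX1 bone marrow 216.2, 225.9 and 194.8 CPM. Neither pair of groups overlapped. The effect was 0.85 ± 0.12 in log2 units (limma adjusted p = 6.7e-05) in fetal liver and 0.39 ± 0.12 (limma adjusted p = 0.0353) in bone marrow, where the median gene moved by 0.13. The bone marrow call did not hold under 10 of 22 alternatives, among them median-of-ratios scaling (0.24, adjusted p = 0.167) and edgeR on recovered reads (0.23, adjusted p = 0.196). It was also lost without WT marrow replicate 1 (adjusted p = 0.0872) or 3 (0.101), without ETV6-RUNX1 marrow replicate 1 (0.097) or 2 (0.12) and without WT fetal replicate 2 (0.0504).

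Irf3 (ENSMUSG00000003184, chromosome 7, 44997648 to 45002848 on the plus strand), which is made constitutively and activated at the protein level, passed the test in neither source. Its levels were 44.0, 52.4 and 48.1 CPM in WT and 54.4, 50.2 and 65.5 CPM in ETV6-RUNX1 fetal liver, and these ranges overlapped. Bone marrow held 39.8, 41.9 and 42.1 CPM in WT and 53.3, 57.2 and 52.1 CPM with the fusion, without overlap. In fetal liver the difference was 0.23 ± 0.13 in log2 units (95% interval -0.06 to 0.51, limma adjusted p = 0.19), and in bone marrow 0.39 ± 0.13 (0.10 to 0.67, limma adjusted p = 0.0578). The bone marrow difference passed only without ETV6-RUNX1 fetal replicate 3 (adjusted p = 0.0461).

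Irf5 (ENSMUSG00000029771, chromosome 6, 29526625 to 29541871 on the plus strand), which acts below Toll-like receptors and induces inflammatory cytokines, rose in fetal liver. The WT fetal libraries were at 15.0, 14.4 and 11.6 CPM and the ETV6-RUNX1 ones at 44.1, 28.3 and 45.4 CPM, with no overlap. In bone marrow the WT libraries were at 16.7, 23.8 and 14.3 CPM and the ETV6-RUNX1 ones at 21.4, 44.8 and 24.1 CPM, so that those ranges overlapped. The effect was 1.44 ± 0.27 in log2 units (limma adjusted p = 0.000764) in fetal liver and 0.65 ± 0.27 (limma adjusted p = 0.107) in bone marrow. Exons of Irf5 share 411 bp, 14.2% of their length, with Tnpo3 on the opposite strand, and whether counting used strand is not given in the sources used here. Tnpo3 had group means of 104 to 142 CPM. Its ranges overlapped between the fetal genotypes, at 86.5 to 134.5 CPM in WT and 89.8 to 113.8 CPM in ETV6-RUNX1. The part of reads from the shared stretch in the Irf5 values was not tested. Smaller overlaps with exons on the opposite strand joined Irf1 to Gm17334 (3.40% of its exon length), Irf3 to Bcl2l12 (2.56%) and Irf7 to Phrf1 (1.19%).

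Irf8 (ENSMUSG00000041515, chromosome 8, 120736358 to 120756694 on the plus strand), the myeloid and dendritic factor, was the only gene of the 7 tested that was called higher in WT fetal liver than in WT bone marrow. It was 11.9, 17.2 and 10.8 CPM in WT and 42.1, 26.0 and 39.4 CPM in ETV6-RUNX1 fetal liver, without overlap. In bone marrow it was 3.43, 4.93 and 4.63 CPM in WT and 9.40, 3.83 and 8.54 CPM with the fusion, where replicate 2 fell inside the WT range. The fetal liver effect was 1.36 ± 0.29 in log2 units (limma adjusted p = 0.00176), 2.70-fold in mean CPM. The bone marrow effect was 0.57 ± 0.29 (95% interval -0.05 to 1.18, limma adjusted p = 0.182), and it passed only without ETV6-RUNX1 marrow replicate 2 (0.91, adjusted p = 0.0384).

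Irf4 (ENSMUSG00000021356, chromosome 13, 30749226 to 30766976 on the plus strand), a factor of B, T and dendritic cells, was scarce. The WT fetal libraries held 0, 2 and 8 reads and the ETV6-RUNX1 fetal libraries 83, 61 and 24 reads, or 1.74, 1.10 and 0.720 CPM. In bone marrow the sums over 3 libraries were 31 reads in WT and 20 reads with the fusion. All 3 ETV6-RUNX1 fetal libraries were therefore above the other 9, at a level below the filter of the main test. When all 29278 genes with a read were fitted, the fetal liver effect was 1.03 ± 0.19 on the log2(CPM + 1) scale (limma adjusted p = 0.00325), and the bone marrow effect was -0.01 ± 0.19 (limma adjusted p = 1).

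Markers of the cell types in which IRF8, IRF4 and IRF5 are best known were read beside these genes. Of 9 monocyte and macrophage markers, 5 passed the filter and were called higher in fetal liver, and 2 of these in bone marrow. Adgre1 and Cd14 of this list, and Xcr1 of the dendritic cell list, were under 1 CPM in every WT library and passed only through fusion libraries, so their entry into these counts depended on the group where they were high. The 9 monocyte and macrophage markers summed to 206 to 270 CPM in WT and 648 to 835 CPM in ETV6-RUNX1 fetal liver. In bone marrow they summed to 227 to 295 against 262 to 437 CPM, and most of each sum came from Lyz2. Cx3cr1, a chemokine receptor of monocytes, stayed below 0.4 CPM in every group mean. Of 8 conventional dendritic cell markers, 6 were tested, and 4 were higher and 1 (Flt3) lower in fetal liver, with 3 higher in bone marrow. These summed to 30.0 to 41.0 CPM in WT and 163 to 469 CPM in ETV6-RUNX1 fetal liver. In bone marrow they summed to 48.8 to 74.6 against 241 to 393 CPM. Most of each sum came from Cd74, except in WT fetal liver. There Flt3 had a mean of 22.8 CPM and Cd74 of 7.29 CPM. In ETV6-RUNX1 fetal liver these means were 5.99 and 309 CPM. Clec9a, a lectin of cross-presenting dendritic cells, went from a mean of 1.31 to 8.15 CPM in fetal liver. Their part in the Irf8, Irf5 and Irf4 results was not tested.

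Plasmacytoid dendritic cells carry much Irf7 and Irf8, so their markers were read as well. Their 6 markers summed to 137 to 150 CPM in WT and 215 to 240 CPM in ETV6-RUNX1 fetal liver, and to 218 to 258 and 259 to 310 CPM in bone marrow, nearly all of it from Tcf4 and Runx2, which are not restricted to these cells. Siglech, a defining surface marker, was at 0 in WT fetal liver and ETV6-RUNX1 bone marrow, and at 0.083 and 0.020 CPM on average in WT bone marrow and ETV6-RUNX1 fetal liver. Klk1 was at 0 in both fetal groups. Below the filter, Ccr9 went from a mean of 0.230 to 0.691 CPM in fetal liver, and Cox6a2 from 0.0166 to 0.375 CPM in bone marrow. Of 8 granulocyte markers, 3 were tested, of which 2 were called lower and 1 was not called in each source. Their summed level was 238 to 311 CPM in WT and 37.4 to 55.2 CPM in ETV6-RUNX1 fetal liver, and 154 (replicate 3) to 366 (replicate 1) CPM in WT bone marrow against 103 to 128 CPM with the fusion. The WT marrow library with the highest granulocyte sum was also the one with the highest Irf7, and the part of these cells in its level was not tested. T and NK cell markers summed to at most 4.35 CPM, with Cd3e at 0 in all groups.

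The fusion also went with higher sums of other marker lists in fetal liver. The 9 HSC markers summed to 1660 to 2035 CPM in WT and 2903 to 3435 CPM in ETV6-RUNX1 fetal liver, the 6 megakaryocyte markers to 3089 to 4575 and 7221 to 7929 CPM, and the 6 erythroid markers to 673 to 935 and 1288 to 2025 CPM. Of the markers tested, 7 of 9 HSC, 3 of 6 megakaryocyte and 3 of 4 erythroid genes were called higher in fetal liver. In the megakaryocyte list 1 gene was called lower. Mean CPM fell from 387 to 213 for Gp9 (megakaryocyte), from 109 to 85.8 for Gata2 (HSC) and from 0.654 to 0.175 for Klf1 (erythroid). Most of the megakaryocyte sum came from Pf4 (means of 2472 and 4816 CPM) and of the erythroid sum from Hbb-bt (815 and 1611 CPM). In bone marrow the sums of these lists overlapped between genotypes. Their part in the IRF results was not tested.

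The fusion effect was then compared between sources. It was larger in fetal liver than in bone marrow for 3 of the 7 genes, Irf1, Irf7 and Irf9, by a test of the difference itself that 5.56% of all genes tested passed in this direction, 3.62% in the opposite one and 9.19% in either. The difference was 3.05 ± 0.63 in log2 units for Irf7 (limma adjusted p = 0.0086), 1.36 ± 0.30 for Irf1 (0.0129) and 1.27 ± 0.25 for Irf9 (0.00551). The call of Irf9 held in all 21 alternatives, and those of Irf1 and Irf7 in 20, ending only when all genes with a read were tested (adjusted p = 0.0585 and 0.0605). For the other 4 genes the difference did not pass. It was 0.46 ± 0.17 for Irf2 (limma adjusted p = 0.0953), 0.79 ± 0.38 for Irf5 (0.205), 0.80 ± 0.41 for Irf8 (0.229) and -0.16 ± 0.19 for Irf3 (0.632).

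**Figure D2:**
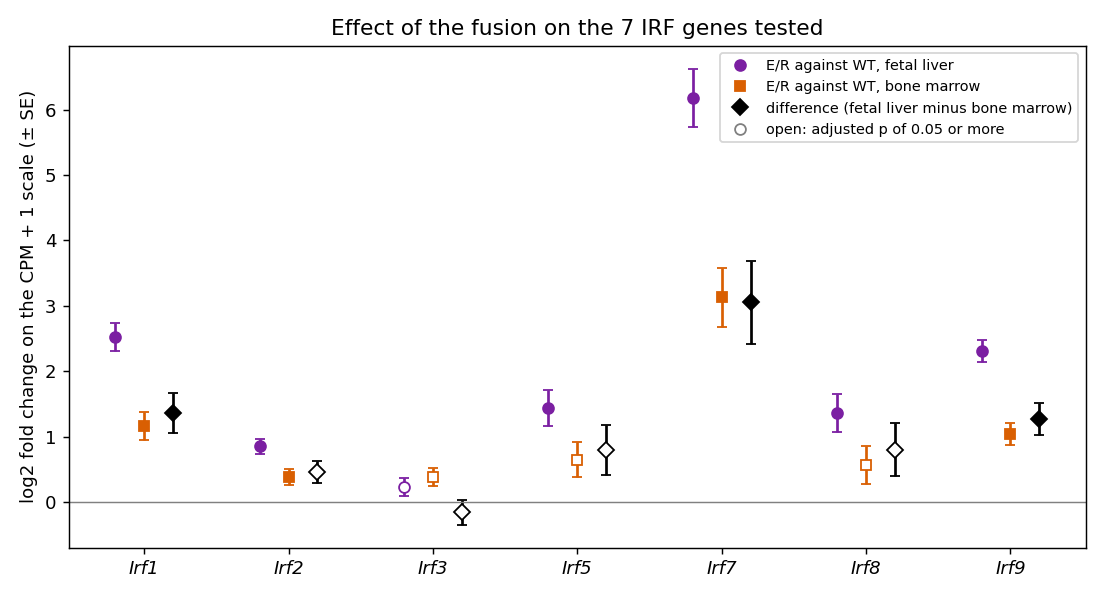
Log2 fold change of ETV6-RUNX1 against WT (CPM + 1 scale, ± SE from limma) in fetal liver (circles) and bone marrow (squares), and the difference between them (diamonds), for the 7 IRF genes tested. Filled symbols have an adjusted p under 0.05, and the difference is filled for Irf1, Irf7 and Irf9.

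Without the fusion, 4 of the 7 genes differed between sources, against 11.1% of all genes tested. Irf8 was higher in WT fetal liver than in WT bone marrow by 1.41 ± 0.29 in log2 units (limma adjusted p = 0.00528), a 3.06-fold difference, where 3.38% of all genes were called higher. Irf7 was lower by 1.50 ± 0.45 on that scale (limma adjusted p = 0.0437), Irf1 by 0.79 ± 0.21 (0.0276) and Irf9 by 0.67 ± 0.17 (0.0211), where 7.77% of all genes were called lower. None of these 4 overlapped between the WT groups, and nor did Irf2 and Irf3, which were not called. How many of all genes tested also lacked overlap was not counted. The Irf8 call held in all 22 alternatives. Irf7 kept its call in 8 of 22, with adjusted p up to 0.187, and without WT marrow replicate 1 its difference was -0.95 (adjusted p = 0.0934). Irf1 kept its call in 14 of 22 (adjusted p up to 0.118) and Irf9 in 15 of 22 (up to 0.124), and both were lost under median-of-ratios scaling and without WT marrow replicate 2, WT fetal replicate 1 or WT fetal replicate 3.

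With the fusion the order of the sources turned for Irf7 and Irf9 and stayed for Irf8. In ETV6-RUNX1 cells Irf7, Irf8 and Irf9 were called higher in fetal liver than in bone marrow, where 10.4% of all genes tested were called higher and 28.6% either way. The differences were 1.55 ± 0.45 in log2 units for Irf7 (limma adjusted p = 0.0186), 2.20 ± 0.29 for Irf8 (6.6e-05) and 0.60 ± 0.17 for Irf9 (0.0191), the median gene being at -0.16. Irf1, at 0.58 ± 0.21 (limma adjusted p = 0.0571), overlapped between the groups. Irf7 and Irf9 each lost the call in 4 of 22 alternatives, among them the one without ETV6-RUNX1 marrow replicate 1 (1.05, adjusted p = 0.0904 for Irf7 and 0.0974 for Irf9), which held the lowest Irf7 of its group, and the one without ETV6-RUNX1 fetal replicate 1 (0.0569 and 0.0508). Irf7 also lost it without ETV6-RUNX1 fetal replicate 3 (0.0587) and Irf9 without ETV6-RUNX1 fetal replicate 2 (0.0578). Irf1, Irf2, Irf5, Irf7 and Irf9 had their lowest group mean in WT fetal liver and their highest in ETV6-RUNX1 fetal liver, with both marrow groups between. For Irf7 and Irf9 no neighbouring groups in this order overlapped, for Irf1 and Irf2 the fusion groups did, and for Irf5 all neighbours did. The share of all genes tested with this order, or without overlap in it, was not counted.

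Sex-linked genes moved with the source. Xist was 51.7 to 89.3 CPM in the fetal liver libraries and 0.175 to 1.27 CPM in the bone marrow libraries, while Ddx3y, on the Y chromosome, was 23.5 to 75.2 and 68.6 to 140 CPM. Sex composition, age and organ cannot be told apart in any comparison between sources. Within a source, Ddx3y was 23.5 to 41.5 CPM in WT and 69.1 to 75.2 CPM in ETV6-RUNX1 fetal liver, without overlap. Xist overlapped between these groups, at 54.4 to 89.3 and 51.7 to 70.1 CPM. In bone marrow Ddx3y overlapped between the genotypes, at 68.6 to 122 and 95.7 to 140 CPM. The fetal genotypes thus differed in Ddx3y, and the part of sex composition in the IRF results was not tested.

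To compare levels between genes, CPM was divided by the length of the joined exons of each gene, giving CPM per kb. In both WT groups Irf2 led, at 22.0 ± 2.72 CPM per kb (SD, n = 3) in bone marrow and 17.3 ± 0.596 in fetal liver. In WT bone marrow the order was Irf2, Irf1, Irf7, Irf9 and Irf3, in which each overlapped with the next up to Irf3, whereas in WT fetal liver the order Irf2, Irf3, Irf1, Irf9 and Irf7 had no overlap between neighbours. In both fusion groups Irf7 led, at 148 ± 70.7 CPM per kb in bone marrow and 394 ± 73.9 in fetal liver. Next in ETV6-RUNX1 fetal liver came Irf1 at 67.2 ± 19.0 and Irf9 at 45.6 ± 1.30, which overlapped, then Irf2 at 31.3 ± 0.988 CPM per kb. Irf8 and Irf4 were lowest in all 4 groups, with Irf8 at 0.614 to 5.08 and Irf4 at 0.0107 to 0.242 CPM per kb. With the median transcript length in place of joined exons, 10 of 32 positions moved, but Irf2 stayed first in the WT groups and Irf7 in the fusion groups.

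**Figure D3:**
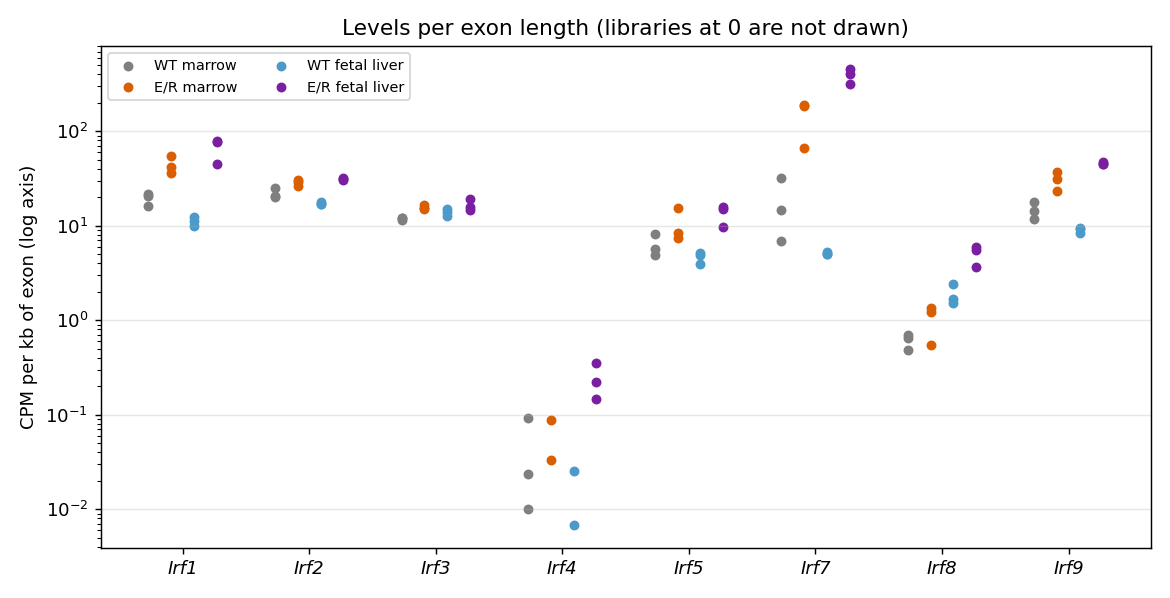
Level of each IRF gene in CPM per kb of joined exons on a log axis, 1 point per library, coloured by group. Irf7 spans the widest range, from about the level of Irf5 in WT fetal liver to the top of the family in ETV6-RUNX1 cells.

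The make-up of the family changed with its sum. Summed over the 8 genes, the level was 63.3 ± 3.76 CPM per kb in WT and 574 ± 96.7 in ETV6-RUNX1 fetal liver, and 93.2 ± 17.5 and 278 ± 87.5 in bone marrow. Irf7 made up 8.12% ± 0.714 of the sum in WT and 68.6% ± 1.44 in ETV6-RUNX1 fetal liver, and 18.2% ± 10.8 and 50.7% ± 12.2 in bone marrow. Irf7 alone did not account for the rise. Without it the sum was still 58.1 ± 3.90 and 179 ± 23.3 CPM per kb in fetal liver and 75.2 ± 9.28 and 131 ± 22.1 in bone marrow. The ratio of Irf1 to Irf2, activator to repressor, was 0.645 ± 0.0568 in WT and 2.15 ± 0.65 in ETV6-RUNX1 fetal liver, and 0.893 ± 0.154 and 1.54 ± 0.294 in bone marrow. Whether that ratio crosses 1 depends on the length used, since with median transcript lengths it was 0.237 and 0.792 in fetal liver.

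The genes around the IRFs were read in order of the pathway. Their counts stand against 24.8% of all genes tested called higher in fetal liver and 18.3% lower, and 14.4% and 4.93% in bone marrow, and the same shares apply to the marker lists above. Of 20 interferon ligand genes only Ifnb1 was tested, and it was called higher in fetal liver (limma adjusted p = 4.0e-06). It passed the filter only through the 3 ETV6-RUNX1 fetal libraries, so that the call was fixed in part by the filter. Ifnb1, interferon beta, had 119, 141 and 163 reads in the ETV6-RUNX1 fetal libraries, 4, 10 and 4 reads in the ETV6-RUNX1 marrow libraries and at most 4 reads in any WT library. The difference of its fusion effect between sources passed the test (limma adjusted p = 0.0016), while the bone marrow effect did not (0.526). Upstream, 13 of 19 tested sensors, adaptors and kinases were higher in fetal liver and 6 in bone marrow, with none lower and medians of 0.74 and 0.32 in log2 units. The RNA sensors Dhx58, Ddx58 and Ifih1 rose by 4.45, 4.18 and 3.55 in fetal liver and by 1.81, 1.79 and 1.50 in bone marrow, and the Z-nucleic acid sensor Zbp1 rose by 6.70 and 3.18.

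Below the ligand, 7 of 10 receptor and JAK-STAT genes were higher in fetal liver and 6 in bone marrow, with none lower and medians of 0.92 and 0.80 in log2 units. Stat2, whose protein joins IRF9 in ISGF3, rose by 4.10 in fetal liver and by 2.14 in bone marrow. Jak2 rose by 1.18 in fetal liver, with 0.34 in bone marrow (limma adjusted p = 0.13), and Ifngr1, a chain of the interferon gamma receptor, rose by 0.57 and 0.43. Among 10 genes listed as brakes on the pathway, 4 were higher in fetal liver and 5 in bone marrow, with medians of 0.35 and 0.83. Socs1, a member of this list, was under 1 CPM in all WT libraries and passed the filter only through fusion libraries. Those called in both sources included Isg15 (5.87 and 2.71), Usp18 (4.72 and 1.57) and Socs3 (1.15 and 1.43). Isg15 and Usp18 are themselves interferon-induced, and Usp18 restrains receptor signalling. Ptpn1, a phosphatase that acts on JAK kinases, was at 0.90 in fetal liver, a call, and 0.83 in bone marrow (limma adjusted p = 0.0555).

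Of 14 tested partner and cofactor genes of IRF proteins, 7 were higher and 1 lower in fetal liver, and 7 were higher in bone marrow, with medians of 0.57 and 0.67. Batf2 rose by 3.38 in log2 units in fetal liver, with 0.65 in bone marrow (limma adjusted p = 0.0969). Ets1 rose by 1.30 in fetal liver, with -0.07 in bone marrow (0.85), and its difference between sources passed the test (1.37 ± 0.32, limma adjusted p = 0.0177). Junb, a partner of BATF and IRF4, rose by 2.44 and 2.75, and Kat2b, an acetyltransferase, by 1.20 and 0.73. Batf, the gene that was lower, was at -0.64 in fetal liver.

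The 18 targets of ISGF3 and IRF7 were called higher in both sources without exception, with medians of 5.50 in fetal liver and 2.22 in bone marrow against all-gene medians of 0.08 and 0.13. For 16 of the 18 the effect was larger in fetal liver by the test of the difference. Of all genes tested, 5.56% passed that test in this direction. The antiviral genes Oas2, Ifi44, Oasl2 and Oas3 rose by 6.39, 7.21, 4.99 and 6.10 in fetal liver and by 2.48, 2.69, 1.99 and 2.15 in bone marrow. The summed level of all 18 targets in the ETV6-RUNX1 marrow libraries was 1550, 3619 and 3688 CPM for replicates 1 to 3, lowest in the library with the lowest Irf7. Of 14 tested targets of IRF1 and IRF8, all 14 were higher in fetal liver and 11 in bone marrow, with medians of 2.14 and 0.77, and the effect was larger in fetal liver for 11. Tap1, the peptide transporter, rose by 2.97 and 1.29, Nlrc5, the activator of MHC class I genes, by 3.58 and 0.66, Gbp2, a GTPase, by 5.11 and 1.86, and Il18bp, which neutralizes interleukin 18, by 4.95 and 2.06. In WT cells 11 of these 14 genes were lower in fetal liver than in bone marrow and none higher, with a median of -1.57. The same contrast had 10 lower of the 18 ISGF3 and IRF7 targets, with a median of -1.48. Of all genes tested, 7.77% were called lower and 3.38% higher in this contrast, and the median gene was at -0.07.

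**Figure D4:**
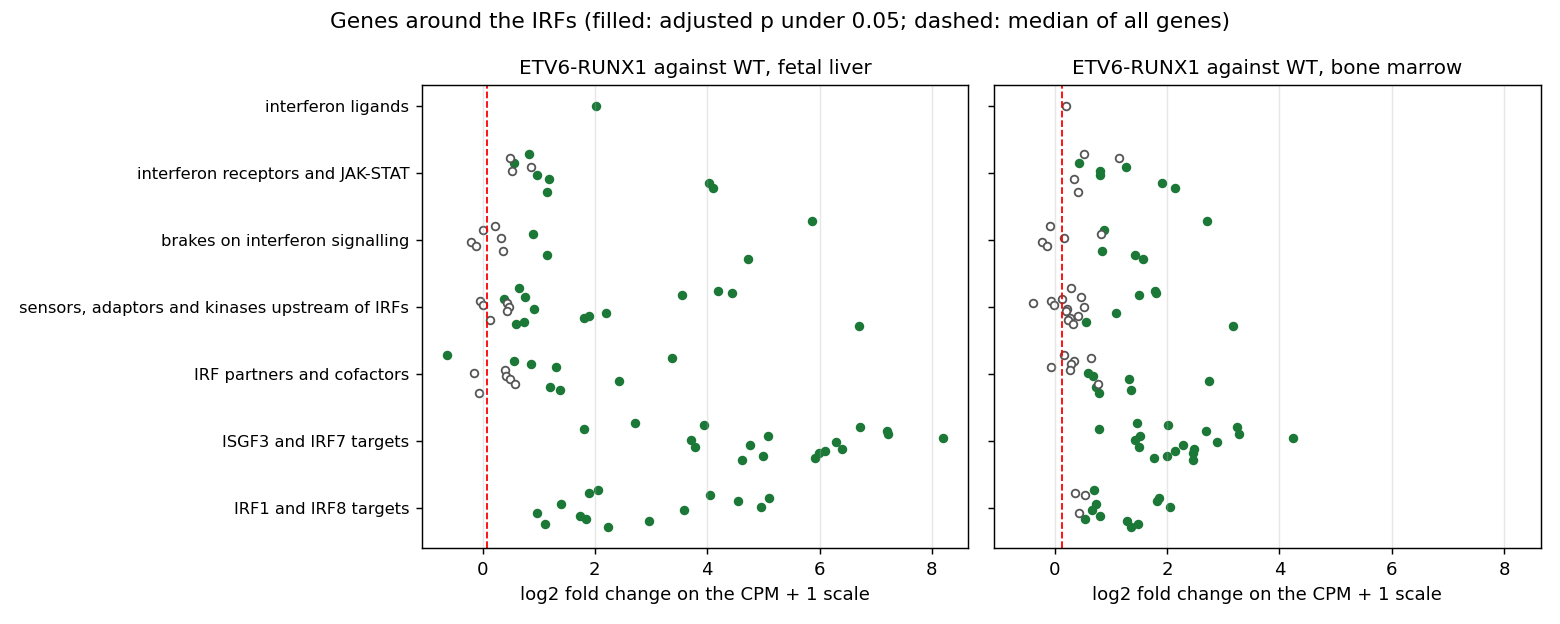
Log2 fold change (CPM + 1 scale) of ETV6-RUNX1 against WT for genes around the IRFs, by list, in fetal liver and bone marrow. Each point is 1 gene, filled where the adjusted p is under 0.05, and the dashed line is the median of all genes tested. The ISGF3 and IRF7 targets are filled in both panels, with medians of 5.50 and 2.22.

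The genes whose pattern over the 12 libraries was most like each IRF were listed by Pearson correlation of log2(CPM + 1), as a description, since the libraries share their groups. Irf7 was nearest to Apol9b, Apol9a and Xaf1 (r = 0.997 to 0.993), Irf9 to Ifit1, Oasl2 and Oas2 (0.993 to 0.992) and Irf1 to Gbp3 and Ifi203-ps (both 0.993). Apol9a and Apol9b are near-identical copies, so their reads may be split. Irf2 was nearest to Spaca6, Fcho2 and Maml2 (0.987 to 0.984), Irf5 to Rnf135, Irak2 and Rasa4 (0.971 to 0.965), Irf8 to Cd276, Arc and Tspan8 (0.962 to 0.955) and Irf3 to Arf5, Dtx2 and Sspo (0.944 to 0.928). Within the family, Irf7 and Irf9 were most alike (r = 0.98), followed by Irf1 and Irf7 (0.977) and Irf1 and Irf9 (0.974). The correlations of Irf8 with the others ran from 0.324 with Irf2 to 0.62 with Irf3, and those of Irf3 with the others from 0.606 to 0.686.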

How the data were processed

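The authors deposited a CPM table of genes by libraries (12 columns). The submitters' processing notes name bcl2fastq, STAR 2.5.1a, Subread, featureCounts 1.4.6-p5, Salmon 0.8.2, edgeR, limma and the build GRCm38, without their roles, and the annotation release and use of strand are not given in the sources used here. Per the labels' protocols, the libraries were stranded total RNA libraries for small inputs, read as pairs. In each library the deposited CPM values rise in equal steps of 1 read, and 100% of them came out as whole reads (within 0.01 reads). The listed genes held at least 99.8% of each total. Repeated gene IDs (276 of 40757 entries) were kept once.

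Values were put on the log2(CPM + 1) scale, which understates the change of low genes. The 14271 genes that reached 1 CPM in 3 or more libraries were fitted with limma 3.58.1 in R 4.3.3 (eBayes with trend, two-sided, 4 group coefficients, 8 residual degrees of freedom). P-values were adjusted by Benjamini-Hochberg over all genes tested, with a threshold of 0.05. Other settings tried were a pseudocount of 0.1, no filter beyond a read in any library, a mean of at least 5 CPM, median-of-ratios scaling, quantile normalization, a replicate block, array weights, edgeR 4.0.16 (quasi-likelihood, TMM) and DESeq2 1.42.0 on recovered reads, fits of just the 6 libraries in a contrast, a 2-fold rule beside the threshold, and leaving out each library. Fits were tested on simulated data. Positions and exon lengths come from GENCODE on GRCm38. All 8 members are named, with at most 4 called genes per pathway list by smallest fetal liver p and the 3 genes most correlated with each tested member. Some genes that these rules name are not reported here. The members, lists and rules were chosen with earlier results of these data known.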

Additional observations from a re-analysis of the deposited data

Results flagged for a closer look

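The effect of the fusion differed between fetal liver and bone marrow for 3 IRF genes by a test of the difference itself. ETV6-RUNX1 against WT was larger in fetal liver by 3.05 in log2 units for Irf7, by 1.36 for Irf1 and by 1.27 for Irf9, with limma adjusted p of 0.0086, 0.0129 and 0.00551. The means of each gene were further apart in fetal liver at both ends. The WT mean was lower in fetal liver than in bone marrow (19.3 against 68.0 CPM for Irf7, 44.4 against 77.7 for Irf1 and 48.8 against 79.3 for Irf9), and the ETV6-RUNX1 mean was higher (1489 against 557, 267 against 176 and 246 against 165 CPM). The ETV6-RUNX1 ranges of Irf1 overlapped between the sources.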

How the results depend on the processing

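Of 798 values of single IRF genes under other settings, 727 kept their direction and their side of the threshold, 54 lost a call, 16 gained one and 1 turned, namely Irf3 between sources in ETV6-RUNX1 cells without ETV6-RUNX1 fetal replicate 3 (-0.051, and up to 0.14 without any other library). The 6 fetal liver calls and the bone marrow calls of Irf1, Irf7 and Irf9 held in 22 of 22 alternatives without the 2-fold rule, and that rule dropped Irf2 in both sources. The number of genes called stayed at 6 without any one library in fetal liver and at 3 to 5 in bone marrow. The 3 calls for the difference between sources became 1 with all genes with a read and 5 with array weights, and were 3 to 4 without any one library. The 4 calls between WT sources became 1 with all genes with a read, with median-of-ratios scaling and with quantile normalization, and 2 with the replicate block, with edgeR and with the 2-fold rule. They were 1 to 4 without any one library. The 3 calls between ETV6-RUNX1 sources were 1 to 5 without any one library, 1 without marrow replicate 1 or fetal replicate 1 and 5 without marrow replicate 2. The cause was not tested. Other scalings also changed the share of higher calls among all genes called, from 30.3% to 41.6% between WT sources (quantile), from 36.3% to 57.7% between ETV6-RUNX1 sources and from 60.6% to 73.8% for the difference (both median-of-ratios). Array weights raised all calls between WT sources from 1591 to 4401 and for the difference from 1311 to 3637. edgeR on recovered reads called 6178 genes in fetal liver and 2739 in bone marrow, where limma called 6151 and 2763. Replicate numbers did not pair the samples (18 correlations between same-numbered libraries of -0.442 to 0.39, 7 of them over 0.1). With the number as a replicate block the IRF calls were 6, 4, 3, 2 and 3 in the 5 comparisons, against 6, 4, 3, 4 and 3 without it. The fit of 6 libraries does not apply to the difference. Irf4, at 10 to 168 reads per group, is limited by depth.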
